A study of Homo sapiens with 6 samples.

Results

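SERPINH1 and 9 genes of collagen folding were followed in RNA sequencing libraries of cells given as LNCaP, an established line of hormone-dependent human prostate cancer. The 10 genes were taken by symbol from a table of 20263 genes, in which all 10 were present and passed the filter on low counts. SERPINH1 was selected on its lower CPM with overexpression in these same libraries, so its values are given as a description with no test. The other 9 were chosen by function as collagen hydroxylases and their partners, and they were tested within the fit over all genes. They and the gene lists read beside them were chosen with earlier results of these data known. A total of 3 libraries came from cells that received a vector for overexpression of LINC01518, a long non-coding RNA, and 3 from cells that received the empty vector, which share the cell line and differ, per the labels, in the insert alone. The series description names MEG3 in place of LINC01518, and the groups follow the sample labels. The levels of both RNAs are not analysed here, which leaves the vector unchecked.

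Collagen chains are synthesised into the endoplasmic reticulum, where they are hydroxylated and folded into a triple helix before they are secreted. Prolyl 4-hydroxylase, a tetramer of alpha subunits (P4HA1, P4HA2) with the disulfide isomerase P4HB, makes the hydroxyproline that stabilises the helix. The lysyl hydroxylases PLOD1, PLOD2 and PLOD3 make the hydroxylysine used for sugar attachment and crosslinks. P3H1 and CRTAP, together with the cyclophilin PPIB, form the prolyl 3-hydroxylase complex. FKBP10 is a peptidyl-prolyl isomerase that acts on procollagen and on lysyl hydroxylation. SERPINH1, also called HSP47, is a chaperone of the serpin fold that binds the procollagen triple helix and travels with it towards the Golgi. It is heat-inducible, and loss of function of SERPINH1, CRTAP, P3H1 or FKBP10 causes brittle bone disease.

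Promoter windows from RefSeq (build GRCh38.p14, 250 bases before to 50 after the start of transcription) were found for 9 of the 10 genes, and 3 of them are shown, read 5′ to 3′ on the gene's strand. The window of SERPINH1 (chr11:75562003-75562302, plus strand) is shown because it is the gene with the changed level, with the heat shock element (TTC, any 2 bases, GAA, any 2 bases, TTC) in capitals. The windows of P4HA1 (chr10:73096817-73097116, minus strand) and PLOD2 (chr3:146161135-146161434, minus strand) are shown because both genes are known to be induced in hypoxia, with the core ACGTG of the hypoxia response element, on either strand, in capitals.
SERPINH1: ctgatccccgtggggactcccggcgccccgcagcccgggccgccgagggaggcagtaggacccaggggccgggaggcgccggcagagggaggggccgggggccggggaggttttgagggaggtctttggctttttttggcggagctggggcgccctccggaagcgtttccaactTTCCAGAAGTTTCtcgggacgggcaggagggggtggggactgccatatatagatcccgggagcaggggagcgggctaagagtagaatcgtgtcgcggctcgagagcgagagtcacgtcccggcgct
P4HA1: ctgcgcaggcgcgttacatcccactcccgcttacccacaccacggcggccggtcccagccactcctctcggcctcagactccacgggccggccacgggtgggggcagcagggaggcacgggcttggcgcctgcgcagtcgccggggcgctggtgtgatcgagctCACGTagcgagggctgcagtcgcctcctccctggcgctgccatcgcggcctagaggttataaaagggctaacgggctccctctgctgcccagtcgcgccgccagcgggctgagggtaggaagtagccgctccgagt
PLOD2: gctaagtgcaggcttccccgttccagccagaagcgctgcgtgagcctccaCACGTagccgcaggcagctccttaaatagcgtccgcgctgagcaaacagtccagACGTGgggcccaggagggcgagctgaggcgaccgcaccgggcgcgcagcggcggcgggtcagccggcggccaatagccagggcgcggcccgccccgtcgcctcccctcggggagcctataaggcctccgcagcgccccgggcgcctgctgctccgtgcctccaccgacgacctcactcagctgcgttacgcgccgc
Both strands were searched for each motif. The heat shock element, at bases -76 to -64 of SERPINH1, was found in no other of these windows, and 0.49% of 35116 promoter windows held it. The core ACGTG occurred at bases -86 to -82 of P4HA1 and at -200 to -196 and -146 to -142 of PLOD2, and also at bases 37 to 41 after the start of SERPINH1, where it was left in lower case. It is a short motif, present in 21.4% of all windows. The endoplasmic reticulum stress element (CCAAT, any 9 bases, CCACG), held by 0.0769% of all windows, was found in none of the 9 genes. The TATA box TATAAA, in 11.5% of all windows, was found in P4HA1 at bases -29 to -24 and in P4HB, where matches on the 2 strands overlap each other. No other matches overlapped. These matches describe the letters of the windows and are not evidence of binding.

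Total counts per library lay between 38161544 and 42553688, and the limit set by a count of 0 was 3 counts, equal to 0.0705 to 0.0786 CPM (counts scaled to a fixed library total), which covers counting error alone. Since the labels name no separate cultures, p-values reflect the spread between these libraries only, and that spread may be technical. Of 14 luminal prostate genes, KLK2, KLK3, KLK4, TMPRSS2, FOLH1 and TRPM8 had 0 counts in all 6 libraries, which goes against the label LNCaP, while the keratin KRT8 was abundant. Of the 7 luminal genes tested, only KRT8 rose (log2 fold change 0.29, edgeR adjusted p = 0.0187), a call lost in 4 of the 6 fits without 1 library and kept without empty vector replicate 1 or 3. The summed level of the 14 was 2727 to 2897 CPM with overexpression and 2263 to 2536 CPM with empty vector, and without KRT8 it overlapped, at 1088 to 1175 CPM with overexpression and 963.5 to 1112 CPM with empty vector. Of 12 fibroblast markers, 5 were tested and 6 never exceeded the limit of 3 counts, among them LUM, PDGFRA, FAP, POSTN and COL1A2. The summed level of the 12 lay between 811 and 852 CPM with overexpression and between 703 and 776.8 CPM with empty vector, nearly all of it FBLN1. Without FBLN1 it was 41.5 to 44.0 CPM with overexpression and 32.5 to 36.3 CPM with empty vector. Most of that rest was PDGFRB, with means of 36.8 CPM with overexpression and 29.7 CPM with empty vector. PDGFRB was the 1 of the 5 tested that rose (log2 fold change 0.31, edgeR adjusted p = 0.0471), where 3.57% of all genes were called higher. This call was lost in each of the 6 fits without 1 library. The CPM of 3 of the 5 were higher without overlap, as were those of 15.9% of all genes. DCN and TCF21 overlapped, TCF21 with a log2 fold change of -0.55 (SE 0.323). The higher sums therefore do not show a rise of the markers as a set. For both lists, the part of these markers in the results below was not tested. In such bulk libraries, fewer cells of a type and less RNA per cell cannot be told apart.

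The comparison asked which transcripts differed between cells with the overexpression vector and cells with the empty vector. SERPINH1 (ENSG00000149257, chromosome 11, 75562056 to 75572783, GRCh38) had 1849, 1742 and 1748 counts with overexpression and 3333, 3729 and 3449 with empty vector. After TMM scaling this was 44.0, 44.3 and 46.3 CPM in the overexpression libraries and 81.3, 87.4 and 89.0 CPM in the empty vector libraries. Every overexpression library lay far below every empty vector library, and the 3 libraries of each group lay close together. The mean was 44.9 ± 1.23 CPM with overexpression and 85.9 ± 4.05 CPM with empty vector (SD, n = 3 each), 47.8% lower, or -0.94 on the log2 scale (SE 0.057), where the log2 fold change is overexpression over empty vector. Of the 13543 genes tested, 88, SERPINH1 included, had a log2 fold change this low or lower. Among the 6256 genes whose average log2 CPM reached 5, there were 7, SERPINH1 included. This rank is a description that follows from the choice of SERPINH1 for its fall.

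The other 9 genes did not share a fall of this size. Their fold changes lay between 0.89 and 1.13, and their median log2 fold change was 0.01, beside -0.0035 for the 13543 genes tested. With edgeR's quasi-likelihood test adjusted over all genes, 1 of the 9 was called at an adjusted p under 0.05, PLOD1, which was higher, against 5.60% of all genes called (3.57% higher and 2.03% lower). That split of all genes, 484 higher and 275 lower, was 414 and 306 with upper-quartile scaling, 346 and 382 with library size only, and 100 and 119 on log2(TPM + 1). The CPM of the groups did not overlap for 4 of the 9, higher with overexpression for PLOD1 and CRTAP and lower for P4HA1 and PLOD3, where 31.4% of all genes did not overlap (15.9% higher and 15.5% lower). The log2 fold change was below 0 for 4 of the 9, against 50.8% of all genes. Other tools gave calls for 2 of the 9 with DESeq2 (PLOD1 and CRTAP), which called 10.1% of the genes for which it gave an adjusted p, 1 of the 9 with limma-voom, which called 5.52% of all genes, and 0 of the 9 with limma-trend on log2(TPM + 1), which called 1.62%. At an unadjusted p under 0.05 there were the same number, 4 of 9, against 23.6% of all genes. The 95% intervals of the 9 folds reached from 0.82 at the lowest to 1.27 at the highest, so none of the 9 intervals held a fold as low as the 0.52 of SERPINH1. That fold was 0.672 as a ratio of mean TPM, and the contrast follows in part from the choice of SERPINH1 for its fall. In simulated counts for this comparison, the test called 0 of 50 genes changed by 1.2-fold and 58% of those changed by 1.5-fold. Those genes were drawn from all tested genes and were not matched to the counts of the 9. The simulation therefore does not give the rate for the 9, and a gene not called is not shown to be unchanged.

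**Figure D1:**
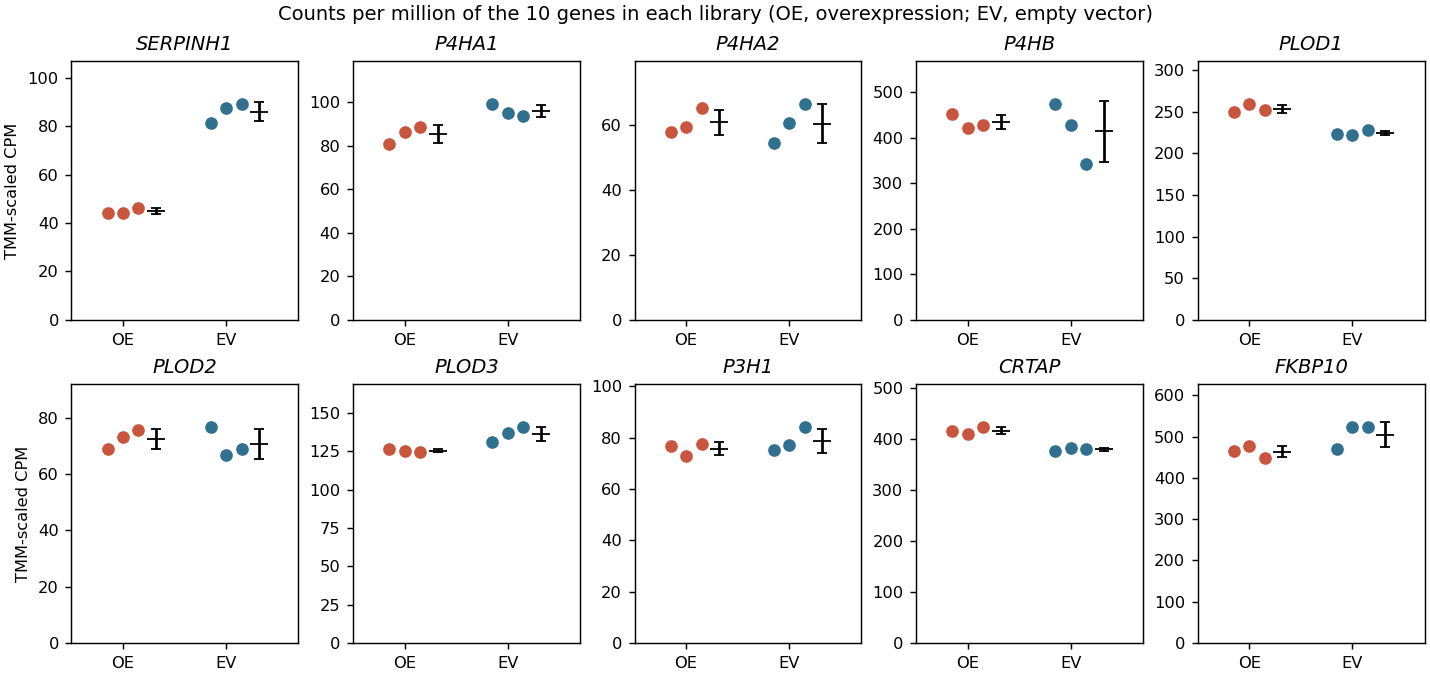
TMM-scaled CPM of the 10 genes in each library, with overexpression (OE) left of empty vector (EV). Points are libraries, and the bar beside them is the mean with the SD of 3 libraries. SERPINH1 separates widely, at 44.0 to 46.3 CPM with overexpression and 81.3 to 89.0 CPM with empty vector, whereas the groups of the other 9 genes lie close together or overlap.

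Of the other chaperone of the set, FKBP10 (chromosome 17, 41812680 to 41823217) had 466, 477 and 448 CPM with overexpression and 469, 522 and 522 CPM with empty vector. The overexpression libraries lay lower on average, but 1 of them, at 477 CPM, was above the lowest empty vector library. The log2 fold change was -0.12 (SE 0.055, edgeR adjusted p = 0.225), and the 95% interval of the fold was 0.842 to 1.003.

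Among the prolyl 4-hydroxylase subunits, P4HA1 (chromosome 10, 73007217 to 73096974), a catalytic alpha subunit, had 80.9, 86.5 and 88.6 CPM with overexpression and 99.1, 94.9 and 93.8 CPM with empty vector. All 3 overexpression libraries were below all 3 empty vector libraries, with a narrow gap. The fold was 0.89 (95% interval 0.817 to 0.969), and the gene was not called (edgeR adjusted p = 0.107). P4HA2 (chromosome 5, 132191838 to 132295315), the alternative alpha subunit, had 58.0, 59.4 and 65.2 CPM with overexpression and 54.4, 60.6 and 66.5 CPM with empty vector. These ranges nearly coincided, with a fold of 1.01 (95% interval 0.879 to 1.15, edgeR adjusted p = 0.966). P4HB (chromosome 17, 81843159 to 81860694), the isomerase subunit that also works on its own, had 452, 422.5 and 428 CPM with overexpression and 474, 428 and 342 CPM with empty vector. Empty vector replicate 3 was well below the other 2 of its group, and the log2 difference of 0.07 (SE 0.116, edgeR adjusted p = 0.771) became -0.05 without that library. P4HA2 overlaps SLC22A4, with 816 to 1146 counts per library, and PDLIM4, with 10 to 37, both on the opposite strand.

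Of the 3 lysyl hydroxylases, 1 was called, and it was higher. PLOD1 (chromosome 1, 11934205 to 11975538), which hydroxylates lysines of the helical part of collagen, had 250.1, 259 and 252 CPM with overexpression and 224, 223 and 228 CPM with empty vector. All overexpression libraries were above all empty vector libraries, 13.0% on average, at a log2 fold change of 0.18 (SE 0.040, 95% interval of the fold 1.061 to 1.204, edgeR adjusted p = 0.0441). That call stood close to the threshold and was lost in each of the 6 fits without 1 library, where the adjusted p lay between 0.0652 and 0.142 and the log2 fold change between 0.16 and 0.19. PLOD2 (chromosome 3, 146069440 to 146163653), which acts on the telopeptides where crosslinks start, had 68.8, 73.3 and 75.8 CPM with overexpression and 76.7, 66.7 and 69.0 CPM with empty vector. The groups overlapped, with a fold of 1.03 (95% interval 0.920 to 1.14, edgeR adjusted p = 0.785). PLOD3 (chromosome 7, 101205977 to 101218420), which also transfers sugars to hydroxylysine, had 127, 125 and 125 CPM with overexpression and 131, 137 and 141 CPM with empty vector. The groups did not overlap, and the gene was not called, with a fold of 0.92 (95% interval 0.855 to 0.988, edgeR adjusted p = 0.155). PLOD3 overlaps ZNHIT1, a gene of the opposite strand that was counted 1829 to 2412 times per library.

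Of the prolyl 3-hydroxylase complex, P3H1 (chromosome 1, 42746335 to 42767084), its enzyme, had 76.9, 72.7 and 77.4 CPM with overexpression and 75.3, 77.1 and 84.1 CPM with empty vector. The groups overlapped, with a fold of 0.96 (95% interval 0.874 to 1.05, edgeR adjusted p = 0.591). CRTAP (chromosome 3, 33113979 to 33147773), its helper subunit, had 415, 409 and 423 CPM with overexpression and 376, 382.5 and 379 CPM with empty vector. The groups did not overlap, with a log2 fold change of 0.13 (SE 0.039) and a 95% interval of the fold of 1.03 to 1.17. It was not called by edgeR (adjusted p = 0.0896) and was called by DESeq2 (adjusted p = 0.044).

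**Figure D2:**
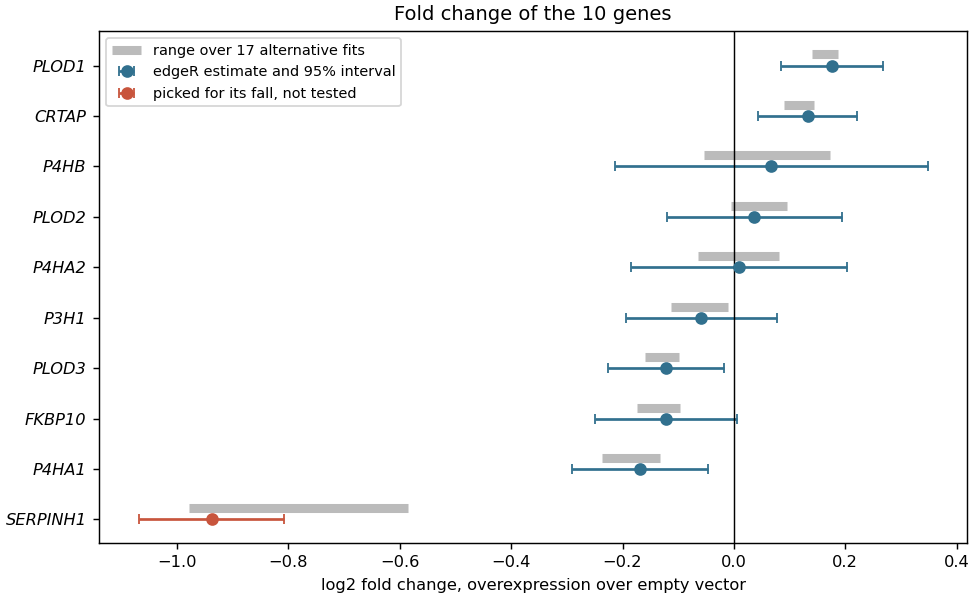
Log2 fold change of the 10 genes, overexpression over empty vector, with edgeR's estimate (points) and its 95% interval (thin bars), below the grey range over 17 alternative fits. SERPINH1, picked for its fall, is at -0.94, and its alternatives reach -0.59 on TPM. The 9 other genes lie between -0.17 and 0.18.

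The size of the SERPINH1 difference depended on the unit. In the deposited TPM (a length-scaled share of all transcripts), SERPINH1 stood at 42.1, 57.8 and 66.6 with overexpression and 80.4, 76.5 and 90.8 with empty vector. The groups still did not overlap, but the overexpression libraries, which agreed closely in CPM, now spread widely. The means were 55.5 ± 12.4 TPM with overexpression and 82.6 ± 7.39 TPM with empty vector (SD, n = 3 each), a ratio of 0.672 beside 0.522 in the fit to counts. The counts per unit of TPM, scaled to the median gene of each library, stood at 96.1%, 71.6% and 64.3% of the empty vector mean in the overexpression libraries and at 99.2%, 109.9% and 90.9% in the empty vector libraries. Overexpression replicates 2 and 3 therefore had fewer counts for each unit of TPM than the other 4 libraries.

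Across libraries the SD of that log2 ratio was 0.298 for SERPINH1, at least as wide as in 97.9% of 10546 well-counted genes, whose median SD was 0.0347. For the other 9 genes it was between 0.0094 and 0.0519, and none stood outside 94.9% to 105.2% of its empty vector mean. TPM divides by an effective length that can change with the mix of transcripts assumed for a gene. GENCODE 29 lists 14 protein-coding transcripts of SERPINH1, from 474 to 3391 bases long, against 5 of P4HA1, from 2727 to 2844 bases. P4HA2, with 15 from 427 to 3349 bases, and P4HB, with 11 from 353 to 2603 bases, had similarly varied transcripts and an SD of 0.0451 and 0.0461. Whether a change in transcript use underlies the SERPINH1 pattern was not tested, since the files hold values per gene only. Stretches of 50 bases shared with other genes made up 1.2% of those in SERPINH1 transcripts, 0.561% with its pseudogene SERPINH1P1, and at most 2.01% in any of the 10 genes.

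**Figure D3:**
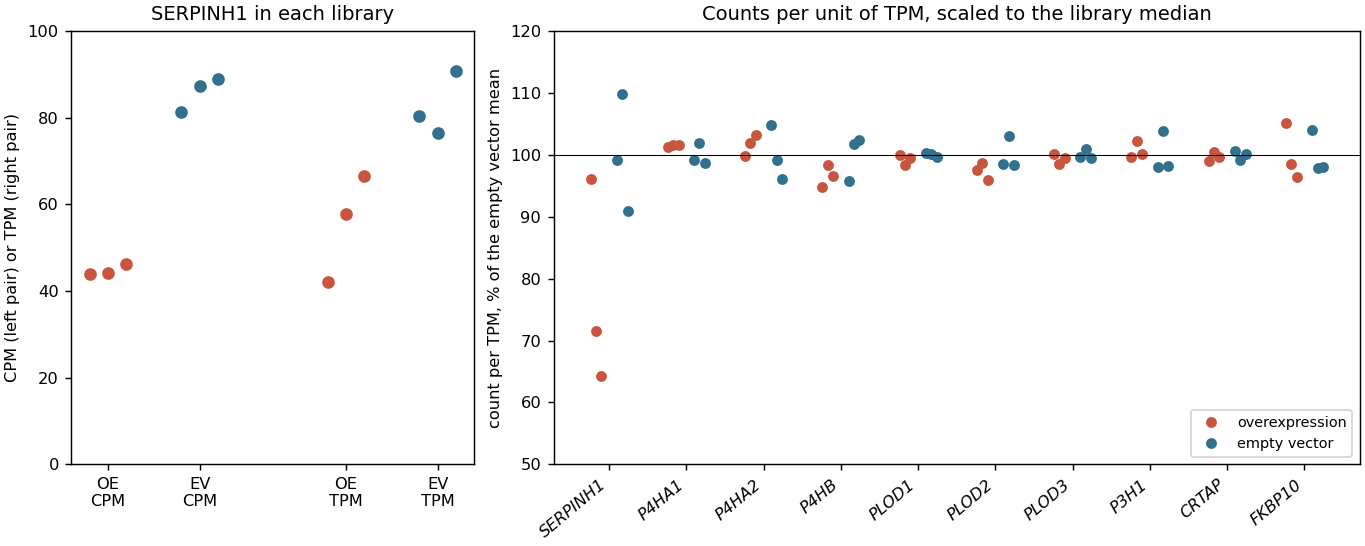
Left, SERPINH1 in each library in CPM and in TPM, overexpression (OE) left of empty vector (EV). Right, counts per unit of TPM for the 10 genes, as a percent of the empty vector mean, with points for libraries. In SERPINH1, overexpression replicates 2 and 3 stand at 71.6% and 64.3%, whereas the other 9 genes stay near 100%.

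Levels per length ordered the 10 genes over more than a 10-fold range of TPM. P4HB (median 496 TPM over the 6 libraries) and FKBP10 (458.5) were the most abundant, with overlapping ranges, so their order is not resolved. PLOD1 (169.0), CRTAP (118.5) and PLOD3 (95.9) followed, and each of these was above the next gene in all 6 libraries. SERPINH1 (71.5), P4HA1 (63.1), P3H1 (58.2), P4HA2 (52.7) and PLOD2 (45.2) had ranges that overlapped with those of their neighbours in the order. By group mean, SERPINH1 at 55.5 TPM with overexpression lay below P4HA1 (58.3) and P3H1 (56.7). At 82.6 TPM with empty vector it lay above P4HA1 (68.6) and P3H1 (61.4). The overexpression libraries did not share 1 order. SERPINH1 was above P3H1 in replicate 2 (57.8 against 54.1 TPM) and in replicate 3 (66.6 against 58.3 TPM). In replicate 3 it was also above P4HA1 (60.3 TPM). In overexpression replicate 1 it was the lowest of the 10 genes, at 42.1 TPM. Other genes of the same families covered a wider range. P3H2, another prolyl 3-hydroxylase, stood at 101 to 114 TPM, above P3H1, while P3H3 stood at 0.537 to 0.98 TPM. PPIB stood at 416 to 493 TPM, the third alpha subunit gene P4HA3 at 30.2 to 36.6 TPM and the isomerase gene FKBP7 at 7.33 to 8.61 TPM, and COLGALT2 was listed at 0 in all 6 libraries.

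**Figure D4:**
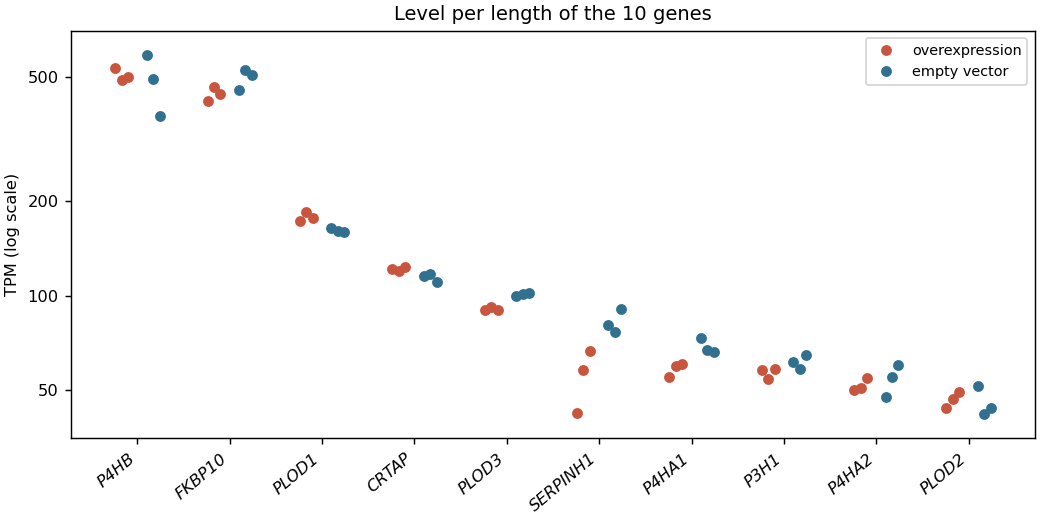
TPM of the 10 genes in each library on a log scale, ordered by mean, with overexpression left of empty vector for each gene. P4HB and FKBP10 lead at medians of 496 and 458.5 TPM, and the groups of SERPINH1 stand apart at 42.1 to 66.6 TPM with overexpression and 76.5 to 90.8 TPM with empty vector.

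Balances within the enzyme families were compared in TPM with an exact two-sided permutation test of 3 against 3 libraries, whose smallest possible p is 0.1, so none of the 7 tests could pass 0.05. PLOD1 made up 56.5%, 57.3% and 56.0% of the summed lysyl hydroxylase TPM with overexpression and 52.1%, 53.0% and 52.3% with empty vector. PLOD3 made up 29.3%, 28.3% and 28.4% with overexpression and 31.7%, 33.3% and 33.3% with empty vector. PLOD1 held the largest share in all 6 libraries, and neither share overlapped between groups (exact p = 0.1 for each, 0.233 adjusted over the 7 tests). The share of PLOD2, 14.7% ± 0.732 with overexpression and 14.8% ± 1.30 with empty vector, overlapped.

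The log2 ratio of P3H1 to CRTAP was -1.10 ± 0.041 with overexpression and -0.90 ± 0.117 with empty vector, with no overlap (SD, n = 3 each; exact permutation p = 0.1, 0.233 adjusted). P4HA1 made up 53.0% ± 0.872 of the TPM of P4HA1 and P4HA2 with overexpression and 56.0% ± 4.24 with empty vector, with overlapping libraries (SD, n = 3 each; exact permutation p = 0.4). The log2 ratio of P4HB to the 2 alpha subunits was 2.20 ± 0.124 with overexpression and 1.96 ± 0.357 with empty vector, also overlapping (SD, n = 3 each; exact permutation p = 0.4). These levels depended on the length used. From counts per exon length, the P4HA1 share was 79.4% with overexpression and 81.3% with empty vector. In the same order of groups, the log2 ratio was then -2.47 and -2.28 for P3H1 to CRTAP. It was 1.24 and 1.02 for P4HB to the alpha subunits.

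The collagen chain genes encode the clients of this machinery. Of 41 listed, 24 were tested, and 5 of these rose and 0 fell, with a median log2 fold change of 0.20 and 6 of the 24 below 0. Over all genes, 3.57% were called higher, 2.03% were called lower and 50.8% had a log2 fold change below 0. COL1A1, the first chain of type I collagen, rose to 114 ± 1.45 CPM with overexpression, against 82.4 ± 3.64 CPM with empty vector (SD, n = 3 each; edgeR adjusted p = 0.00452), and COL9A3 of type IX collagen to 242 ± 4.44 CPM, against 193 ± 4.28 CPM (edgeR adjusted p = 0.00816). COL18A1, COL17A1 and COL16A1 completed the 5, and without 1 library 2 or 3 were called. COL1A2, the usual partner chain of COL1A1, had at most 2 counts in any library. The most abundant chains by TPM were COL4A2, COL9A3 and COL7A1, of which COL4A2 (log2 fold change -0.05, SE 0.057) and COL7A1 (-0.15, SE 0.087) were not called.

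Set against the summed TPM of all 41 chains, SERPINH1 had a log2 ratio of -4.53, -4.20 and -3.92 with overexpression and -3.72, -3.77 and -3.32 with empty vector. All 3 overexpression libraries had less SERPINH1 per collagen transcript than any empty vector library, a description that follows from the choice of SERPINH1. For the 9 other genes summed, the same log2 ratio was 0.62 ± 0.056 with overexpression and 0.67 ± 0.041 with empty vector, with overlapping libraries (SD, n = 3 each; exact permutation p = 0.4).

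Other genes of procollagen handling resembled the 9 enzymes more than SERPINH1. Of 14 further folding and modification genes, 13 were tested and 0 were called by edgeR, against 5.60% of all genes. At an unadjusted p under 0.05 there were 2, against 23.6% of all genes, and DESeq2 called 1, against 10.1%. Without overlap in CPM, 1 was higher and 3 were lower, against 15.9% and 15.5% of all genes. Their log2 fold changes lay between -0.23 and 0.09 (median -0.09). For PPIB, the cyclophilin of the P3H1 complex, the log2 fold change stood at -0.09 (SE 0.065, edgeR adjusted p = 0.458). For COLGALT1, the galactosyltransferase that acts on hydroxylysine, it stood at 0.09 (SE 0.046, edgeR adjusted p = 0.263). The receptors that return escaped chaperones to the endoplasmic reticulum stood at -0.22 for KDELR1, -0.05 for KDELR2 and -0.23 for KDELR3 (edgeR adjusted p = 0.182, 0.634 and 0.066). Without overexpression replicate 1, 1 of the 13 was called, and it was lower.

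Of 20 genes for export and cleavage of procollagen, 17 were tested and 1 was called, near the 5.60% called over all genes. It was TLL1, a tolloid-like protease gene at 33.0 ± 2.19 CPM with overexpression and 24.4 ± 3.17 CPM with empty vector (SD, n = 3 each; edgeR adjusted p = 0.0493). Leaving out 1 library at a time removed this call in 5 of 6 fits, and it stood only without empty vector replicate 2. MIA3, the export receptor of large procollagens, stood at -0.17 on the log2 scale (SE 0.059, edgeR adjusted p = 0.138), and the median of the 17 was -0.11.

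Gene groups whose inducers are known to act on members of the set were read beside it, and whether those inducers acted here was not tested. Of 19 genes for chaperones, folding and protein degradation of the endoplasmic reticulum, 9 fell and 0 rose, and all 19 had a negative log2 fold change (median -0.36). Over all genes, 2.03% were called lower, 3.57% were called higher and 50.8% had a negative log2 fold change. HSPA5, the most abundant of them by CPM, fell to 1714 ± 55.3 CPM with overexpression, against 2862 ± 73.8 CPM with empty vector (SD, n = 3 each; edgeR adjusted p = 5.27e-04), and PDIA4, HSP90B1 and SEL1L fell in all 6 fits without 1 library as well. Without any 1 of the overexpression replicates, 5 of the 19 were called. P4HB, the isomerase of the present set, was at 0.07, and its relatives on this list other than PDIA4 were not called either, with PDIA6 at -0.06, TXNDC5 at -0.09 and PDIA3 at -0.11 (edgeR adjusted p = 0.433, 0.566 and 0.16).

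Of 23 heat shock genes, 2 rose and 0 fell (median log2 fold change -0.0046), against 3.57% of all genes called higher and 2.03% called lower. Those that rose encode small heat shock proteins, CRYAB at 8.50 ± 0.644 CPM with overexpression and 4.53 ± 0.767 CPM with empty vector (SD, n = 3 each; edgeR adjusted p = 0.0147) and HSPB8 at 30.5 ± 2.28 CPM with overexpression and 22.3 ± 0.535 CPM with empty vector (SD, n = 3 each; edgeR adjusted p = 0.0163). Neither was called without overexpression replicate 1 or 2, 1 gene of the list was called without empty vector replicate 2, and 3 were called without empty vector replicate 3. The lowest log2 fold change of the list was -0.08, beside -0.94 for SERPINH1, whose promoter holds the heat shock element shown above. Whether heat shock control has a part in the SERPINH1 level was not tested.

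Of 25 hypoxia-induced genes, 7 rose and 1 fell (median log2 fold change 0.18), against 3.57% of all genes called higher and 2.03% called lower. Those that rose included EGLN1, an oxygen sensor gene of the prolyl hydroxylase class, at 152 ± 3.92 CPM with overexpression and 113 ± 5.65 CPM with empty vector (SD, n = 3 each; edgeR adjusted p = 0.00656), and BNIP3, PFKFB4 and CA9. The 1 that fell was ANGPTL4 (log2 fold change -0.43, edgeR adjusted p = 0.0163), and the lowest log2 fold change of the list was -0.53. P4HA1 and PLOD2, hypoxia-induced members with the ACGTG core, were at -0.17 and 0.04 and were not called. In the fits without 1 library, the hypoxia list had 2 to 6 genes higher, with 2 without overexpression replicate 1 and 2 without overexpression replicate 2, 4 without overexpression replicate 3 and 4 without empty vector replicate 2. Without overexpression replicate 2, as many were called lower as higher, 2 each. Without empty vector replicate 1, 2 or 3, 1 was called lower, and without overexpression replicate 1 or 3, 0 were.

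**Figure D5:**
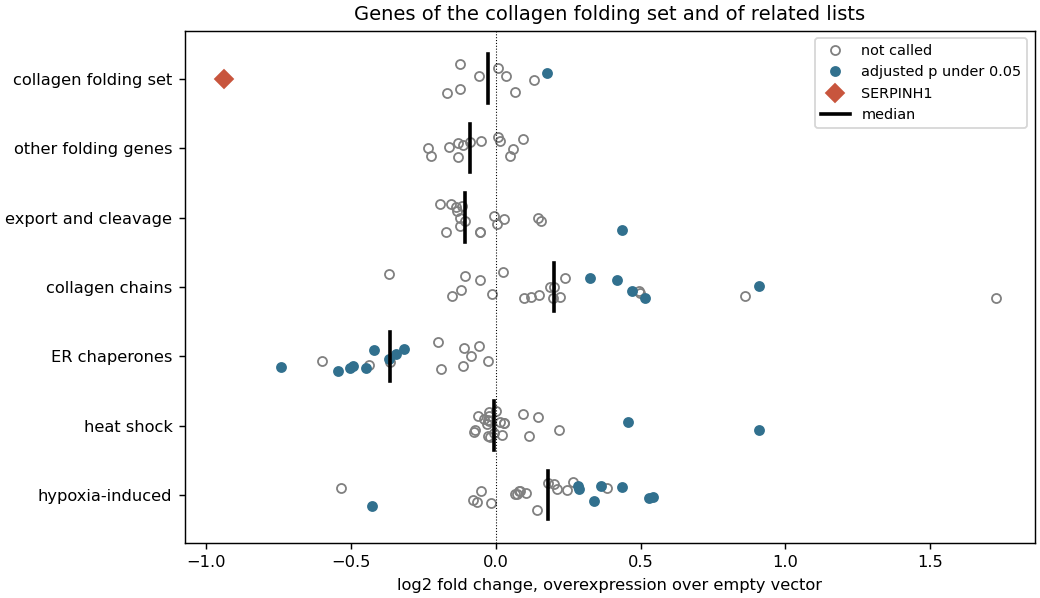
Log2 fold change, overexpression over empty vector, of the tested genes of the collagen folding set and of 6 related lists. Filled points had an edgeR adjusted p under 0.05, the diamond is SERPINH1 and black bars are medians. The list marked ER chaperones, which also holds degradation genes of the endoplasmic reticulum (ER), lies left of 0 with a median of -0.36. The collagen chains and hypoxia-induced genes have medians of 0.20 and 0.18.

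The genes with profiles closest to SERPINH1 over the 6 libraries, by the root mean square difference of log2 CPM centred on each gene, were IL20RB (0.101), HSPA5 (0.113), ENSG00000258472 (0.127), TGM2 (0.128) and RAPGEF3 (0.129), among genes whose average log2 CPM reached 1. IL20RB encodes a cytokine receptor subunit, TGM2 a transglutaminase that crosslinks proteins and RAPGEF3 an exchange factor activated by cyclic AMP. Their log2 fold changes lay between -0.69 and -0.81, and TGM2 had 166 ± 2.75 CPM with overexpression and 269 ± 7.88 CPM with empty vector (SD, n = 3 each). Of the 9 other members, P4HA1 came closest to SERPINH1, at 0.39, and PLOD1 was the farthest, at 0.559. The likeness is a description over 6 libraries in 2 groups, and it is set mainly by the difference between the groups.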

How the data were processed

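Gene-level RNA sequencing values of 6 libraries were used, 3 per group by the sample titles. Per the submitters' processing notes, Trimmomatic 0.36, HISAT2, featureCounts of Subread 1.5.1, DESeq and build GRCh38 were used by the authors. The annotation, the strand setting and the TPM tool were "not given in the sources used here". The deposited counts were whole numbers with no normalization. The deposited TPM were scaled to a like sum in every library. All sample columns were matched to titles by name. Symbols came from a gene name table (20148 genes) and positions from GENCODE 29.

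The members and lists were chosen with earlier results of these data known. Counts were filtered with filterByExpr (minimum count 10, minimum total 15), leaving 13543 genes, scaled by TMM and fitted with edgeR 4.0.16 (R 4.3.3; robust quasi-likelihood F test, group as the only term), with Benjamini-Hochberg adjustment over all genes. The SE was the log2 fold change divided by the square root of F, and 95% intervals used the test's degrees of freedom. Named genes were the members, up to 4 called genes of each list by p, or its 2 most abundant where none was called, and the 5 nearest profiles; any further name was picked with its values in view. The fit was tested on simulated counts for 13543 genes, 200 of them changed: it called 0% at 1.2-fold, 58% at 1.5-fold, 76% at 2-fold, 90% at 4-fold and 16 of 13343 genes left as they were. TPM were tested with limma 3.58.1 on log2(TPM + 1), which understates changes of low genes. Alternatives also used DESeq2 1.42.0. With the strand setting unknown, counts of genes that overlap on opposite strands may be mixed.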

Additional observations from a re-analysis of the deposited data

How the results depend on the processing

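The total of genes called, the members called and the 10 fold changes were recomputed under 17 alternative fits, and the ratios from counts per exon length and without 1 library. The other lists were counted only with DESeq2, on TPM and without 1 library, and the order by TPM and the nearest profiles were not recomputed. The number of genes called, 759 in the main fit, was 1316 with DESeq2, 219 with limma-trend on log2(TPM + 1), 225 with a pseudocount of 0.1, 152 without a filter on TPM, and 193 to 458 without 1 library, where fewer libraries enter. Of the 9 members other than SERPINH1, 1 was called in the main fit, 2 with DESeq2 and 0 with library size only, upper-quartile scaling, no filter on counts, any of the 3 fits to TPM, or without any 1 library (0 to 0 in edgeR's 6 fits); in the main fit 4 of the 9 had an unadjusted p under 0.05. The adjusted p of PLOD1 was 0.0541 with upper-quartile scaling, 0.073 with library size only, 0.0513 without a count filter and 0.155 on TPM; over all 17 alternatives it lay between 0.00686 and 0.164, and its log2 fold change between 0.14 and 0.19. The log2 fold change of SERPINH1 lay between -0.91 and -0.98 in the alternatives on counts and was -0.59 on TPM with either pseudocount. P4HA2, at 0.0086 in the main fit, was at -0.00148 with upper-quartile scaling, -0.0228 with library size only, -0.0572 on log2(TPM + 1) with or without the filter, -0.058 with a pseudocount of 0.1 and -0.0646 to 0.0817 without 1 library. Without 1 library P4HB ranged from -0.0543 to 0.172 and PLOD2 from -0.00565 to 0.0961, and the difference in the share of PLOD2, -0.0413 percentage points, ranged from -0.558 to 0.692. From counts per exon length instead of TPM, the difference in the log2 ratio of SERPINH1 was -1.003 to the collagen chains (-0.61 on TPM) and -0.94 to the 9 other members (-0.56 on TPM). The causes of these shifts were not tested.

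The replicate numbers were not shown to pair libraries: deviations from the group means of same-numbered libraries correlated at 0.016, 0.0534 and 0.1 over 11862 genes, and not every library correlated best with its own number. With the replicate block edgeR called 232 genes and 0 of the 9 members, with PLOD1 at an adjusted p of 0.105. All 10 genes had at least 1742 counts per library, and how much of their spread is counting error was not separated.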
